A study of Oryctolagus cuniculus with 54 samples.

Results

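The earliest and the latest stage of rabbit lung development in the series were compared within 1 sequencing run. The comparison rests on 15 of the 54 libraries, each from a different animal, out of 45 animals in all. The pseudoglandular lungs were 8 fetal lungs, 4 at F20 and 4 at F23, taken on days 20 and 23 of gestation. The late alveolar lungs were 7 lungs of term-born pups, 4 at T37 and 3 at T42, which lie 37 and 42 days after conception and 6 and 11 days after birth on day 31. Members were chosen by time point and run alone: all libraries of run 3 from these 4 time points were used, and F20, F23, T37 and T42 were sequenced in no other run. All animals were New Zealand White rabbits, and all pups were killed with pentothal before the lungs were taken. Fetuses came from Caesarean section with immediate collection of the lungs, after their dams had received medetomidine, ketamine and xylazine and then a lethal dose of pentothal. The term pups were delivered naturally and stayed with their mothers in room air. By the histology of the study, F23 lies at the passage into the canalicular phase, so the later of the fetal time points is not purely pseudoglandular.

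In the pseudoglandular phase the future airways grow and branch as epithelial tubes within a thick mesenchyme, and cells divide rapidly. In the alveolar phase secondary septa grow out of the walls of the air spaces and divide them into thin-walled alveoli, where type I cells carry gas exchange and type II cells make surfactant. Between the phases lie the canalicular phase, in which capillaries approach the epithelium, and the saccular phase, in which terminal sacs widen. The question of the comparison is how far the messenger RNA of the lung differs between the branching organ and the organ with septating alveoli.

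Messenger RNA was measured by sequencing the 3′ ends of polyadenylated transcripts and counting reads per gene. Several limits belong to the groups themselves. Pseudoglandular means before birth here and late alveolar means after birth, so phase, birth, air breathing, feeding and the drugs given to the dams of the fetuses cannot be told apart. The labels name right lung homogenate, but the study's methods state that whole lungs were taken at days 20 and 23 because the organs are small, so the part of the lung sampled cannot be told apart from the phase either. The methods describe lungs from different dams, for no fewer than 3 lung pairs at each time point, but the labels do not name the dam, so litter mates among the animals of a time point cannot be recognised. In homogenates of a whole organ, fewer cells of a type and less RNA per cell cannot be told apart. The table lists Ensembl identifiers without names, and 0 of its 29587 identifiers matched the gene table used here. No gene is therefore called by a symbol or assigned a function, the tissue label could not be checked against marker genes, and 4 genes chosen by a fixed rule are given by identifier.

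Depth did not differ detectably between the phases. The 8 pseudoglandular libraries held 6433138 to 7323627 counts with a median of 7019854, and the 7 late alveolar libraries 6523223 to 7825102 with a median of 7109060. This difference did not pass a two-sided exact permutation test over all 6435 divisions of the 15 animals (p = 0.24, adjusted p = 0.3 over 5 library values tested). A count was found for 15809 ± 149 genes (SD, n = 8) in pseudoglandular lungs and for 15760 ± 109 genes (SD, n = 7) in late alveolar lungs (exact permutation p = 0.493, adjusted p = 0.493). No library was a copy of another, with 0 identical pairs and Spearman correlations across genes between 0.874 and 0.981.

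A few libraries stood apart from their group in particular genes. The clearest was F20 animal 35. Among the genes called lower in late alveolar lung by the test described further on, 30 of 1449 had over 50% of their summed pseudoglandular level in 1 library, and 18 of these 30 had it in F20 animal 35. These 18 genes made up 0.355% of all counts of F20 animal 35 and 0.0371% of those of F23 animal 23. In the other 6 pseudoglandular libraries the share was 0.00187% to 0.00333%. The 18 were picked for their level in F20 animal 35, so the excess of that library follows from the choice. The gene with the largest fall, described below, held a large part of both shares. F23 animal 23 held the bulk of another 8 of the 30 genes. The gene with the largest fitted fall of all, with a log2 fold change of -10.4 (SE 2.44, adjusted p = 0.00159 by edgeR's quasi-likelihood test), was one of the 18. It had 12199 counts in F20 animal 35 and 1081 in F23 animal 23, 1 to 45 counts in the other 6 pseudoglandular libraries, 0 in each of the 4 T37 libraries and in T42 animal 33, 1 in T42 animal 14 and 6 in T42 animal 50. Both phases overlapped in this gene, and F20 animal 35 alone held 90.4% of its summed pseudoglandular level in CPM, the count of a gene scaled to a common library total of 1e6 reads. Among the genes called higher in late alveolar lung, only 9 of 2179 were found mostly in 1 library, 3 of them in T37 animal 27 and 3 in T42 animal 33. With F20 animal 35 and F23 animal 23 both left out, 3614 genes were called instead of 3628, and 3380 were called in both fits. The genes called lower then numbered 1391 instead of 1449.

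The phases were far apart compared with the animals inside them. A principal component analysis of log2 CPM values put 56.7% of the variance on its first component, against 5.9% and 5.57% on the components after it. On the first component F20 lay at -74.5 ± 4.98 (SD, n = 4), F23 at -48.5 ± 5.78 (SD, n = 4), T37 at 64.5 ± 7.43 (SD, n = 4) and T42 at 78.1 ± 6.68 (SD, n = 3). The 4 time points thus lay in the order of age, without overlap between the phases.

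The distance between libraries showed the same order in a unit that can be read per gene. Expressed as the root mean square difference in log2 CPM over the genes tested, 2 animals of the same phase were 0.753 apart on average, with a range of 0.615 to 0.917 over 49 pairs. Animals of different phases were 1.30 apart, with a range of 1.06 to 1.51 over 56 pairs. No pair from different phases was as close as the most distant pair from the same phase. The closest time points across the phases were F23 and T37 at 1.17, followed by F23 and T42 at 1.26, F20 and T37 at 1.36, and F20 and T42 at 1.44. Inside the phases, the time points F20 and F23 were 0.811 apart and T37 and T42 were 0.738 apart, close to the distances between animals of 1 time point, which averaged 0.762 at F20, 0.694 at F23, 0.711 at T37 and 0.69 at T42.

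Of the measured genes, 25.3% differed between the phases at the thresholds of the study. The test covered every gene that reached 0.5 CPM in 3 or more of the 15 libraries, and a gene was called at a fold change above 2 in either direction with a Benjamini-Hochberg adjusted p of at most 0.05. Of 14365 genes tested with edgeR's quasi-likelihood test, 3628 were called. More of them were higher in late alveolar lung (2179 genes, or 15.2% of those tested) than lower (1449 genes, or 10.1%), so 60.1% of the called genes were higher. The median log2 fold change was 1.93 among the genes called higher, with an interquartile range of 1.41 to 2.92, and -1.73 among those called lower, with a range of -2.35 to -1.33. The typical standard error of a called gene was 0.319 on the log2 scale for genes called higher and 0.335 for genes called lower. Over all genes tested the median log2 fold change was -0.0198.

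The split between rises and falls depended on how the libraries were scaled. TMM scaling, which assumes that most genes do not change, gave the values above. With library sizes alone the median gene moved to -0.177, 3724 genes were called, and 50.9% of them were higher (1895 against 1829). Both scalings called 3344 genes in common, with 0 of opposite direction, so that the called genes were largely shared while the excess of rises was seen with TMM and was nearly gone without it.

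**Figure D1:**
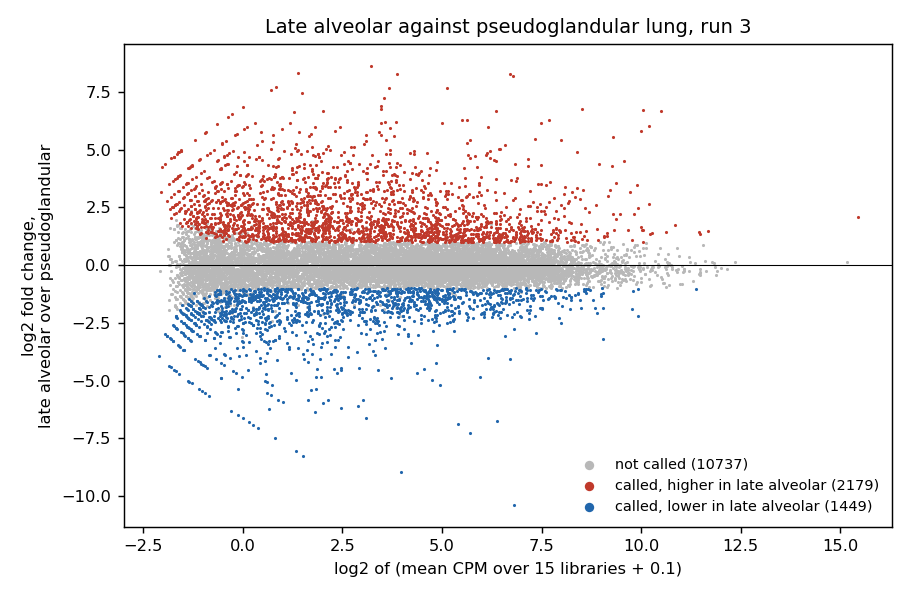
Each point is 1 of the 14365 genes tested. The horizontal axis gives its abundance as the log2 of its mean CPM over the 15 libraries plus 0.1, and the vertical axis its log2 fold change, late alveolar over pseudoglandular. Red points were called higher (2179), blue points called lower (1449), and grey points were not called (10737). The lowest blue point, at -10.4, is the gene found mostly in F20 animal 35.

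Large differences were more often rises. Between 2-fold and 4-fold, 1132 genes were higher and 889 lower, or 56.0% higher. The share was 58.5% between 4-fold and 8-fold, with 528 genes higher and 375 lower. It was 75.6% between 8-fold and 16-fold, with 295 higher and 95 lower. From 16-fold to 32-fold 141 genes were higher and 49 lower, and beyond 32-fold 83 were higher and 41 lower. Of these last 41 genes, 9 had most of their pseudoglandular level in 1 library, against 2 of the 83 that rose.

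Genes of every abundance were called, but the balance shifted at the top. Below 1 CPM, 764 of 2478 genes were called (30.8%), 416 higher and 348 lower, and the median standard error of a gene there was 0.589 on the log2 scale. Between 10 and 100 CPM, 1100 of 5665 genes were called (19.4%), 678 higher and 422 lower, with a median standard error of 0.124. Among the 102 genes with a mean of at least 1000 CPM, 17 were called higher and 1 lower. Fold changes of scarce genes were therefore far less precise than those of abundant ones, and a scarce gene needed a larger difference to be called.

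The values of single animals bear on how clean the calls were. For 3673 of the 14365 genes (25.6%), the log2 CPM values of the 8 pseudoglandular and the 7 late alveolar libraries did not overlap at all, 2081 of them with every late alveolar library higher (14.5%) and 1592 with every late alveolar library lower (11.1%). Of the 3628 genes called, 2203 were free of overlap (60.7%). This was the case for 1483 of the genes called higher (68.1%) and for 720 of those called lower (49.7%). The common biological coefficient of variation, which measures how much a gene varies between animals beyond counting error, was 0.291 within the pseudoglandular phase and 0.247 within the late alveolar phase. Within single time points it was 0.275 at F20, 0.227 at F23, 0.243 at T37 and 0.21 at T42.

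Few of the called genes had reads in 1 phase only. Genes that were not called or that failed the filter were not counted for this. With 0 counts in all 8 pseudoglandular libraries, 21 genes were called higher, and their late alveolar means had a median of 0.52 CPM and reached 5.4 CPM. In the opposite direction, 22 genes with 0 counts in all 7 late alveolar libraries were called lower, with pseudoglandular means of 0.753 CPM at the median and at most 5.13 CPM. A count of 0 allows up to 3 counts, or 0.054 CPM over the 55523656 counts of the pseudoglandular libraries together and 0.0595 CPM over the 50455244 counts of the late alveolar libraries. With a limit of 0.5 CPM in place of a count of 0, 78 genes reached it in every late alveolar library and in no pseudoglandular one, and 18 genes did so the other way round. In contrast, 10361 genes reached 0.5 CPM in all 15 libraries, so most of the genes tested were detected in both phases.

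By the fixed rule, the genes with the largest rises and falls were taken among called genes whose phases did not overlap and whose mean reached 10 CPM in the higher phase. The largest rise was that of ENSOCUG00000014317. It had 2 counts in all 8 pseudoglandular libraries together, with 0 to 0.134 CPM per library. In late alveolar lung it reached 11.4, 7.19, 7.61 and 6.52 CPM in the 4 T37 animals and 53.0, 34.4 and 17.4 CPM in the 3 T42 animals. Every late alveolar library lay above every pseudoglandular one, as the rule requires, and the 3 T42 libraries lay above the 4 T37 libraries. The rule also picks large fold changes, which favours the fitted values of the genes it names. The fitted log2 fold change was 8.63 (SE 0.754, adjusted p = 4.76e-08, edgeR). Because the lower phase held so few counts, the ratio of the phases was 538 with a 95% counting interval of 148 to 4450. Between T37 and T42 the gene differed by 2.08 on the log2 scale (adjusted p = 0.0421, edgeR). This call was not stable: with 1 animal left out the gene was called in 6 of 15 fits, with adjusted p between 0.012 and 0.136 and a log2 difference of 1.64 to 2.41.

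ENSOCUG00000008303 showed the second largest rise. Its pseudoglandular libraries held 5 counts in all, at 0 to 0.535 CPM, and the highest of them was F23 animal 6. The T37 animals had 7.4, 23.6, 19.7 and 37.7 CPM and the T42 animals 43.1, 46.3 and 39.4 CPM. T37 was the more variable time point, with 1 animal well below the other 3. The log2 fold change was 8.30 (SE 0.57, adjusted p = 3.07e-09, edgeR), and the ratio of the phases was 338 with a 95% counting interval of 145 to 1040. The difference between T42 and T37 did not pass the threshold here (log2 difference 0.936, adjusted p = 0.382).

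Among the falls, ENSOCUG00000001512 came first. In pseudoglandular lung it stood at 30.2, 36.3, 33.3 and 35.6 CPM in the F20 animals and at 25.7, 32.3, 15.3 and 22.9 CPM in the F23 animals. In late alveolar lung 2 counts were found in the 7 libraries together, at 0 to 0.141 CPM. The F20 and F23 values overlapped, and their difference of -0.497 on the log2 scale did not pass the test (adjusted p = 0.211). Between the phases the log2 fold change was -8.97 (SE 0.375, adjusted p = 1.08e-11, edgeR), and the ratio was 797 with a 95% counting interval of 220 to 6590.

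ENSOCUG00000017197 fell from a higher level and did not reach 0. Its values were 85.8, 84.5, 75.8 and 77.9 CPM at F20 and 90.7, 89.8, 65.6 and 57.3 CPM at F23. Late alveolar libraries held between 0.137 and 1.09 CPM, with a mean of 0.635 ± 0.374 CPM (SD, n = 7) from 32 counts, against 78.4 ± 11.9 CPM (SD, n = 8) in pseudoglandular lung. The log2 fold change of -6.88 had the smallest standard error of the 4 genes (SE 0.237, adjusted p = 3.53e-12, edgeR), and the ratio of 134 had a 95% counting interval of 95.1 to 197. Neither the difference between F23 and F20 nor that between T42 and T37 passed the test (adjusted p = 0.837 and 0.982).

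**Figure D2:**
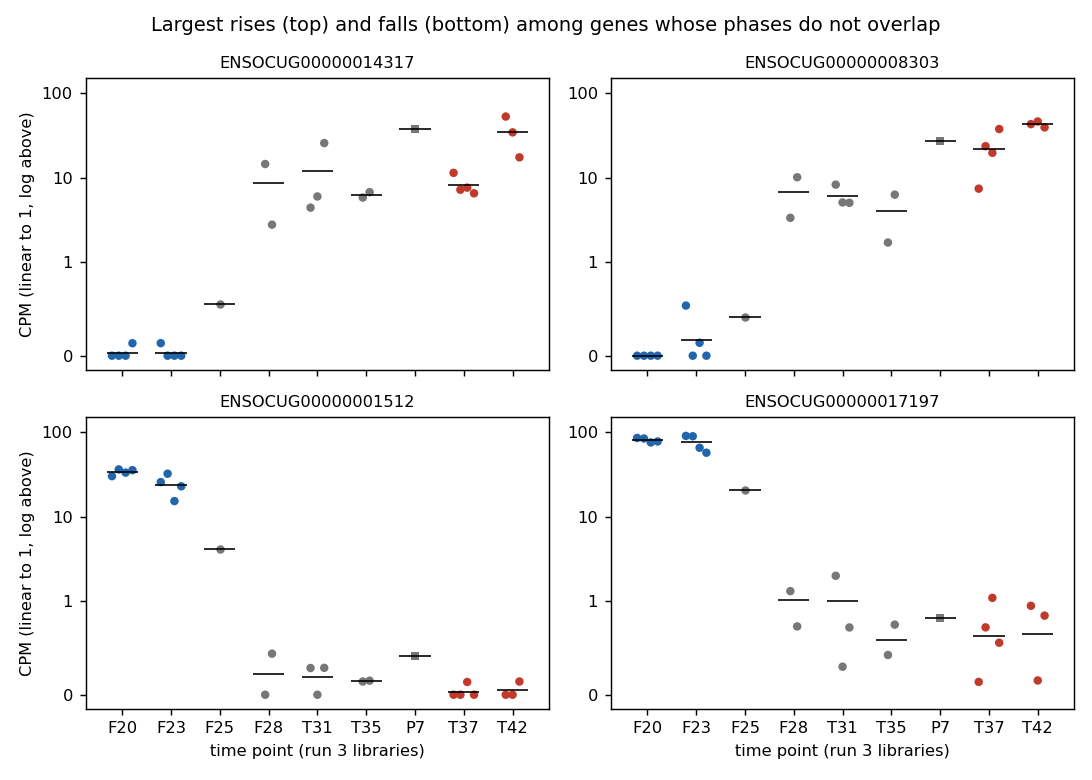
CPM of the 4 genes in every library of run 3, 1 point per library, with time points in order along the horizontal axis; the vertical axis is linear up to 1 CPM and logarithmic above, and the bar marks the mean of a time point. Blue points are pseudoglandular, red points late alveolar, grey points the time points between, and the grey square the 1 preterm-born pup. Both genes in the upper row lay under 1 CPM up to F25 and above 1 CPM from F28 on, and both genes in the lower row had left their pseudoglandular range by F25.

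The other run 3 libraries place these 4 genes between the phases. They cover F25 in the canalicular phase (1 animal), F28 in the saccular phase (2), T31 and T35 in the early alveolar phase (3 and 2) and 1 pup born preterm and kept to postnatal day 7 (P7). ENSOCUG00000014317 was at 0.549 CPM at F25, at 14.5 and 2.77 CPM at F28, and at 4.41, 5.98 and 25.7 CPM at T31, so that its late alveolar range was already entered by 1 animal before birth. ENSOCUG00000008303 was at 0.412 CPM at F25 and at 3.34 and 10.1 CPM at F28, and 1 of the 2 T35 animals had only 1.7 CPM. ENSOCUG00000001512 had dropped to 4.12 CPM at F25 and to 0 and 0.438 CPM at F28. ENSOCUG00000017197 was at 20.6 CPM at F25 and at 1.31 and 0.729 CPM at F28. In the P7 pup the first pair stood at 37.8 and 27.3 CPM and the second pair at 0.41 and 0.82 CPM, on the late alveolar side for all 4 genes.

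Late alveolar lung put more of its reads into fewer genes. The 10 most abundant genes of a library held 9.9% ± 2.58 of its counts in pseudoglandular lung (SD, n = 8, range 7.1% to 12.6%) and 15% ± 2.16 in late alveolar lung (SD, n = 7, range 12.1% to 18%). The difference of 5.1 percentage points passed the two-sided exact permutation test (p = 0.00124, adjusted p = 0.00311). Accordingly, 524 ± 52.9 genes (SD, n = 8) were needed to collect 50% of the counts of a pseudoglandular library, but only 426 ± 56.6 (SD, n = 7) in late alveolar lung (exact permutation p = 0.00653, adjusted p = 0.0109). The ranges overlapped in both measures, but not within the bands of the second most abundant gene described below.

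The share of a single gene differed by 5.48 percentage points, as much as that of the 10 together. The gene most abundant over the 15 libraries held 1.56%, 1.01%, 2.76% and 1.13% of the counts in the F20 animals and 2.67%, 1.95%, 2.57% and 1.73% in the F23 animals. At T37 it held 8.78%, 4.35%, 7.06% and 8.59%, and at T42 it held 7.08%, 7.97% and 8.0%. No late alveolar library overlapped with a pseudoglandular one, and T37 animal 27 was the lowest of the 7. The phase means were 1.92% ± 0.688 (SD, n = 8) and 7.4% ± 1.5 (SD, n = 7), and the exact permutation p of 0.000311 (adjusted p = 0.00155) is the smallest that 6435 divisions can give. In the fit across all genes its log2 fold change was 2.11 (SE 0.214, adjusted p = 2.59e-07, edgeR).

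In the libraries between the phases, the most abundant gene held 2.43% at F25, 3.9% and 4.93% at F28, 5.44% to 9.74% at T31 and 6.7% to 8.3% at T35. It was thus at or above the lowest late alveolar value in 1 of 2 animals at F28 and in all animals at T31 and T35. That lowest value was the 4.35% of T37 animal 27, which lay far below the other late alveolar libraries. The next lowest late alveolar value was 7.06%, above both F28 animals and above the lowest animals at T31 and T35. The P7 pup had 2.52%, inside the pseudoglandular range. In that pup the genes called higher together nevertheless held 20.8% of the counts.

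Taken over all called genes, the genes called higher collected 6.78% ± 1.42 of the counts in pseudoglandular lung (SD, n = 8, range 4.88% to 8.49%) and 23.8% ± 1.94 in late alveolar lung (SD, n = 7, range 20.2% to 26.3%). Without the most abundant gene these shares were 4.85% ± 0.869 and 16.4% ± 0.957. The genes called lower went from 7.28% ± 0.572 (range 6.42% to 8.13%) to 2.31% ± 0.495 (range 1.84% to 3.12%). The calls were made on these libraries, so the shares describe the size of the change in reads and carry no test. Hence the 2179 genes called higher and the 1449 called lower held similar mean shares over the pseudoglandular libraries. This averages opposite orders at the time points. The means were 5.69% (higher) and 7.74% (lower) at F20, and 7.86% and 6.83% at F23. In late alveolar lung the genes called higher took far more.

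**Figure D3:**
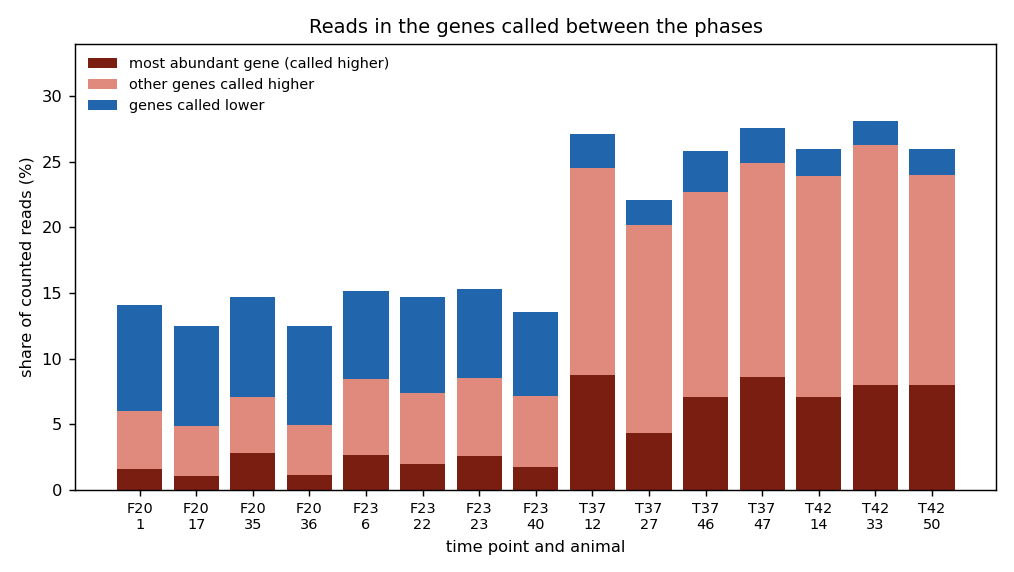
Share of the counted reads, in percent, that fell on the called genes in each of the 15 libraries. Dark red is the most abundant gene, light red the other genes called higher, and blue the genes called lower. The red parts together reach 4.88% to 8.49% in the 8 pseudoglandular libraries and 20.2% to 26.3% in the 7 late alveolar libraries.

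The lists of abundant genes overlapped in good part. The 100 most abundant genes of the phases had 66 genes in common. Of the 100 most abundant genes of late alveolar lung, 29 were called higher and 1 was called lower, beside 15.2% and 10.1% of all genes tested. This list was ranked by late alveolar abundance, which by itself favours genes that are higher there. Of the 100 most abundant of pseudoglandular lung, 4 were called higher and 5 lower. Most of the abundant genes of the early lung were thus not called, and this list likewise favours genes that are higher in its own phase.

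The second most abundant gene behaved differently from the first. It ranged from 0.931% to 7.22% of the counts among the pseudoglandular libraries and from 1.32% to 7.82% among the late alveolar ones, and its log2 fold change of 0.156 did not pass the test (SE 0.574, adjusted p = 0.838, edgeR). Its values fell into separate bands inside both phases. It held 0.931% to 1.79% of the counts in 8 libraries and 6.01% to 7.82% in the other 7, with no library between.

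The same division of animals appeared in 3 other abundant genes, which were found or nearly absent depending on the animal. They were the genes above 0.3% of the counts in 1 library and below 0.02% in another at each of the 4 time points. The first of the 3 held 0.639% to 1.02% in the 8 libraries of the low band and 0.000601% to 0.00668% in the 7 libraries of the high band. The remaining 2 genes did the reverse, with 0.00474% to 0.0104% in the former and 0.289% to 0.576% in the latter. The low band comprised F20 animal 1, F23 animals 6, 22 and 23, T37 animals 12, 46 and 47 and T42 animal 33. That is 4 of 8 pseudoglandular and 4 of 7 late alveolar animals, and none of the 3 genes was called between the phases. By time point the low band held 1 of 4 animals at F20, 3 of 4 at F23, 3 of 4 at T37 and 1 of 3 at T42. Contrasts of time points inside a phase are therefore not balanced for this division and cannot be fully told apart from it.

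Each of the 4 pairs of time points across the phases gave between 2679 and 3893 called genes. These contrasts came from 1 fit with 4 groups and share animals, so their counts are set side by side. T37 against F23, the pair closest in age, gave 2679 called genes, or 18.6% of those tested, with 1737 higher and 942 lower. T42 against F23 gave 3173 (22.1%), with 1937 higher and 1236 lower. T37 against F20 gave 3526 (24.5%), with 2141 higher and 1385 lower. T42 against F20, the widest pair, gave 3893 (27.1%), with 2291 higher and 1602 lower. The counts did not simply follow the distance in age, since T37 against F20 gave more than T42 against F23, and T42 has 3 animals against 4 at the other time points. Rises outnumbered falls in all 4 pairs with TMM scaling.

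Inside the phases far fewer genes were called. F23 against F20 gave 302 called genes, or 2.1% of those tested, with 254 higher at F23 and 48 lower. T42 against T37 gave 11, or 0.0766%, with 8 higher at T42 and 3 lower, although 1768 genes had an unadjusted p below 0.05. Both the count and its balance were unstable. Without T37 animal 27 the count was 112, with 23 higher at T42 and 89 lower, so that the balance turned. T37 animal 27 was the only T37 animal in the high band. That fit therefore set T37 animals of the low band alone against T42 animals of both bands, and the 2 differences cannot be told apart. The count lay between 1 and 17 with any other single library left out, and limma-voom called 29.

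To see whether the difference between the phases was found again in other animals, pairs of time points were fitted alone on libraries that had no animal in common. T37 against F20 called 3403 genes (23.7% of those tested) and T42 against F23 called 3189 (22.2%). They shared 2282 genes, which are 67.1% of the first list and 71.6% of the second, and 3 of the shared genes had opposite directions. Of the 1121 genes called in the first pair only, 1019 (90.9%) had the same sign in the second. The share of equal signs over all genes is not given here, so this value has no background beside it. The pairs were chosen after seeing the data, from the libraries that set the main calls. The low band held 3 of 4 animals at T37 and 1 of 4 at F20, but 1 of 3 at T42 and 3 of 4 at F23. The other arrangement paired T37 with F23 (2630 genes, 18.3%) and T42 with F20 (3769 genes, 26.2%). It shared 2114 genes, or 80.4% and 56.1% of the lists, with 1 of opposite direction. Across the 14365 genes, the fold changes of the pairs correlated with Pearson's r of 0.786 and 0.809, where genes are not independent replicates and all libraries come from 1 run.

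**Figure D4:**
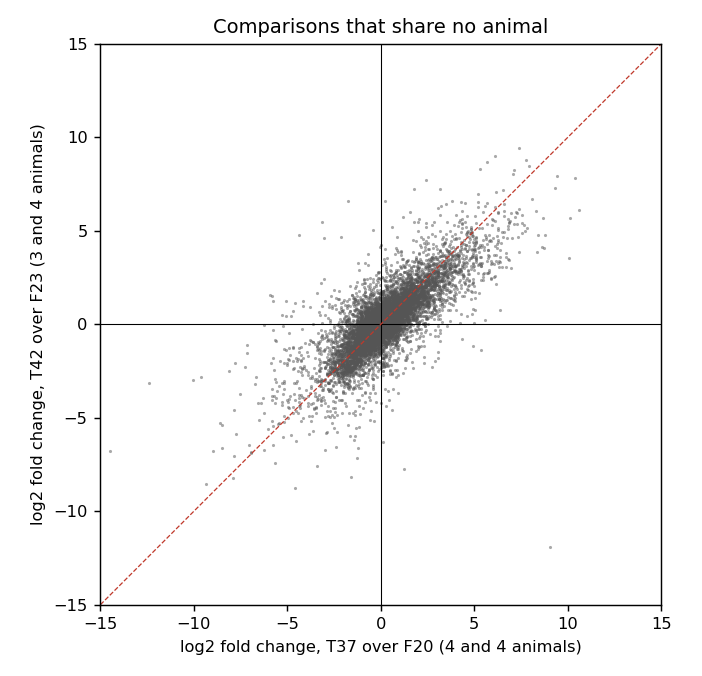
Log2 fold changes of the 14365 genes tested in a pair of comparisons that have no animal in common. The horizontal axis is T37 over F20 (4 and 4 animals), the vertical axis T42 over F23 (3 and 4 animals), each point is a gene, and the dashed line marks equal values. The cloud follows the line (Pearson's r 0.786), with a few genes far from it.

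The 9 other libraries of run 3, which took no part in the calls, show when the called genes changed. For each called gene the midpoint between the pseudoglandular and the late alveolar mean of log2 CPM was taken, and the share of genes past it, on the late alveolar side, was counted per library. At F25, in 1 animal, 37.7% of the genes called higher and 49.2% of the genes called lower had passed it. At F28 the shares were 69.2% and 69.3% for the genes called higher in the 2 animals and 80.5% and 80.7% for those called lower. So most called genes stood on the late alveolar side in the saccular lung, before birth, with the falls ahead of the rises in every animal at F25 and F28. Genes called lower also had the larger share in most pseudoglandular libraries, at 5.8% to 17.7% against 2.48% to 11.4%. The lead of the falls was therefore not particular to F25 and F28.

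From F28 on the shares grew more slowly than between F25 and F28, where F25 rests on 1 animal. At T31 they were 71.6% to 82.3% for the genes called higher and 84.8% to 88.1% for those called lower, and at T35 they were 87.2% to 87.3% and 88.6% to 89.7%. The P7 pup, born preterm and of the same postconceptional age as T35, had 87.3% and 88.2%. For comparison, the libraries that set the midpoints had 2.48% to 11.4% (higher) and 5.8% to 17.7% (lower) at F20 and F23, and 92.1% to 95.7% and 85.6% to 93.9% at T37 and T42. The values at T37 and T42 come from libraries that set the calls and the midpoints, which favours them over the other libraries, so the shares at T35 cannot be ranked against them.

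**Figure D5:**
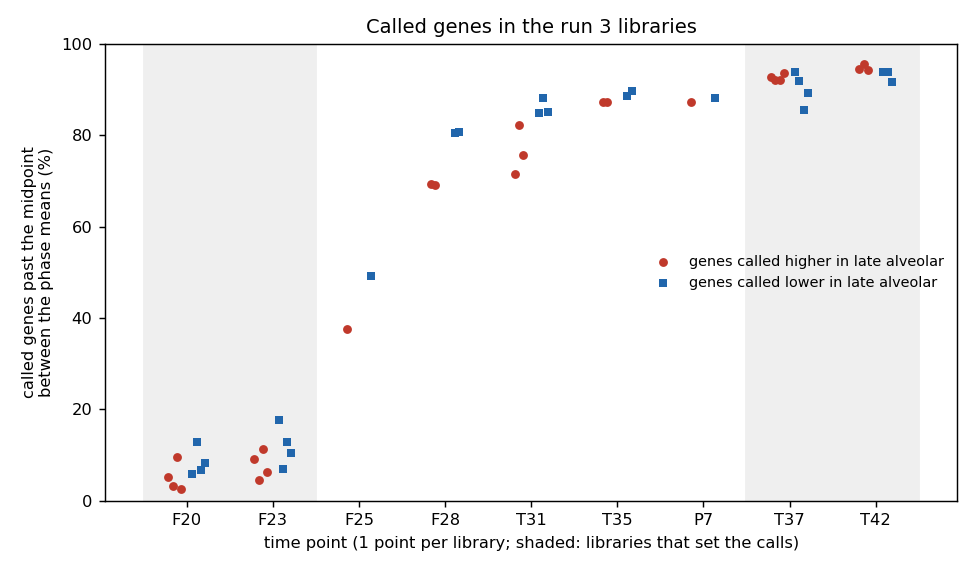
Share of the called genes past the midpoint between the phase means, in percent, for each of the 24 libraries of run 3, with time points in order along the horizontal axis. Circles are genes called higher and squares genes called lower in late alveolar lung; shading marks the 15 libraries that set the calls. The values climb from 37.7% and 49.2% at F25 to 87.2% and more at T35.

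Counted by gene, most changes had begun by F28 and lasted. Using the mean of each time point, 622 of the genes called higher (28.5%) and 601 of those called lower (41.5%) were past the midpoint from F25 on without returning. Another 679 (31.2%) and 505 (34.9%) followed at F28, 327 (15%) and 139 (9.59%) at T31, and 312 (14.3%) and 87 (6.0%) at T35. Only 77 genes called higher (3.53%) and 15 called lower (1.04%) were first past it after T35. A further 162 (7.43%) and 102 (7.04%) had passed it at an earlier time point but were back on the pseudoglandular side at T35. F25 rests on 1 animal, so a gene placed there has no replicate.

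Seen as a distance, the median gene called higher had covered 35.5% of the way from the pseudoglandular to the late alveolar mean at F25, 77.7% and 78.3% at F28, 79.8% to 92.7% at T31 and 99.4% to 103% at T35. The median gene called lower had covered 48.8% at F25, 91.2% and 97.0% at F28, 109% to 118% at T31 and 103% to 113% at T35. In the late alveolar libraries themselves the median gene called higher ranged from 91.1% to 109%, which includes both T35 animals. At T31, on the day of birth, the genes called lower thus lay below their late alveolar mean in the median, at values that overlap with the 86.1% to 115% of the late alveolar libraries. The share of counts in the genes called lower was 4.49% at F25, 2.79% at F28, 1.97% at T31 and 1.91% at T35, and that in the genes called higher was 10.9%, 18.5%, 22.8% and 23.8%.

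Some genes left the range of both phases in between. At T31, 204 of the 1449 genes called lower had a mean more than 1 log2 unit below both phase means. In the other direction, 79 of the 2179 genes called higher had a mean more than 1 log2 unit above both. At F28 these numbers were 40 and 50, and at T35 they were 81 and 57. Among the 10737 genes not called between the phases, 143 were above both phase means by this measure at T31 and 268 were below both, and at F28 195 and 323. The corresponding numbers at F25, 241 and 542, come from 1 animal. The means at F28 and T35 rest on 2 animals and those at T31 on 3. Scatter between animals was not set apart from change in these counts.

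Most genes called between the phases were called again when single animals or time points were left out. With each of the 15 animals left out in turn, 3460 to 3681 genes were called, and 3009 of the 3628 genes (82.9%) were called in all 15 fits. Without F20 3033 genes were called, 2820 of them among the 3628, and without F23 3799, with 3213 among the 3628. Without T37 these numbers were 3473 and 2988, and without T42 3114 and 2949. The study's own test, limma-voom with the same filter and thresholds, called 3622 genes, 2240 higher and 1382 lower. Of these, 3397 were among the 3628.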

How the data were processed

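The authors used BBduk for trimming, STAR for alignment to OryCun2.0 and HTSeq-count for counts per Ensembl gene; a custom script handled reads in unannotated 3′ UTRs, and whether the table includes them is not stated. Tool versions are not given in the sources used here. The deposited values are raw counts, whole numbers without normalization, for 29587 identifiers in 54 columns, 0 of them unmapped to a sample. No molecular identifiers are described, so counting intervals and the limits of a count of 0 cover counting error only. Totals were 6433138 to 7825102 counts in the 15 libraries, where 0.5 CPM is a few reads.

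Time points and runs came from the labels and phases from the study's text. The animal was the replicate. Libraries were compared with edgeR 4.0.16 in R 4.3.3 (quasi-likelihood test, TMM scaling, at least 0.5 CPM in at least 3 of 15 libraries, Benjamini-Hochberg adjustment over all genes tested, thresholds of 2 for the fold change and 0.05 for the adjusted p), with a model of the phases and a model of the 4 time points. CPM per library use the total count of the library scaled by TMM, except in the account of genes found mostly in 1 library, where the total count alone was used. Log2 CPM used a prior count of 2. The standard error is the log2 fold change divided by the square root of the test's F. Library values were compared by two-sided exact permutation tests with scipy 1.17.1, and figures drawn with matplotlib 3.10.9. The scripts were tested on simulated data. Alternatives were limma 3.58.1 (voom), DESeq2 1.42.0, other scalings, filters and thresholds, and the removal of animals and time points.

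Named genes were the 2 identifiers with the largest rise and the 2 with the largest fall among called genes without overlap of the phases and with a mean of at least 10 CPM in the higher phase. Gene lists prepared by symbol could not be used, because no identifier was paired with a symbol, and no sequences are shown for the same reason. The libraries, lists and tests were chosen with earlier results of these data known.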

Additional observations from a re-analysis of the deposited data

Results flagged for a closer look

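In 22 groups of library values and gene levels, the highest or the lowest sample was compared with the rest of its group by Dixon's gap test, which flags about 1 in 20 groups by chance, and 2 samples were flagged. The most abundant gene held 4.35% of the counts in T37 animal 27, far below the other 6 late alveolar libraries, with a gap to the nearest of them of 0.613 of the whole range. The same library held most of the late alveolar level of 3 genes called higher, and leaving it out changed the count of T42 against T37 from 11 (8 higher at T42, 3 lower) to 112 (23 higher, 89 lower). It was also the only T37 library in the high band of the second most abundant gene. The level of ENSOCUG00000008303 in F23 animal 6, at -0.3 on the log2 CPM scale, lay above the other 7 pseudoglandular libraries. The gap was 0.625 of the range. That library had 4 counts of the gene and the other 7 had 0 or 1 each, so this flag rests on a few reads. The level remained far below every late alveolar library.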

How the results depend on the processing

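Of the thresholds, 2 moved the count of genes called between the phases by more than 1.5 times. Calling by adjusted p alone gave 7841 genes (3992 higher, 3849 lower), and requiring at least 10 counts in every library, which leaves 9203 genes to test and removes genes near 0 in 1 phase, gave 1536 (976 higher, 560 lower). The other alternatives for this count lay between 3033 (without F20) and 3934 (no filter on low counts, 21027 genes tested). They included DESeq2 with 3630, RLE size factors with 3632, a fold change of 1.5 inside the test with 3676, the mean of 4 time points with 3702, all run 3 libraries in 1 fit with 3735, and 36 animals with the run in the model with 3847. Leaving out 1 animal gave 3460 to 3681 genes. In the contrasts of time points the same step gave 2430 to 2720 genes for T37 against F23, 2882 to 3216 for T42 against F23, 3275 to 3530 for T37 against F20, 3553 to 3966 for T42 against F20 and 226 to 343 for F23 against F20.

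T42 against T37 was the unstable contrast, with 1 to 112 genes when 1 animal was left out and 29 by limma-voom against 11; the cause was not tested. It fell to 1 without T37 animal 46 or 47, T42 animal 14 or 33 or F23 animal 22 or 40, to 3 without T37 animal 12, T42 animal 50 or F20 animal 17, and to 7 without F20 animal 36, and it was 17 without F23 animal 23. The 4 named genes kept their direction and their call between the phases in every alternative that tested them, with log2 fold changes of 8.16 to 9.11, 8.11 to 9.77, -9.48 to -8.79 and -7.07 to -6.72 when 1 animal was left out. The fit without both F20 animal 35 and F23 animal 23 and the pairs of time points fitted alone were chosen after seeing the data. Depth limits genes below 1 CPM most. No paired analysis was possible because the animal numbers of F20, F23, T37 and T42 name different animals and are not shared between the phases. Other settings for gene lists were not run, since no identifier had a symbol.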

Other observations

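The division of animals by 3 abundant genes that were either found or nearly absent was present in the whole series. Over all 54 libraries, the first of the 3 genes held 0.119% to 1.02% of the counts in 25 libraries and 0.000138% to 0.00668% in the other 29. The remaining 2 genes held 0.000972% to 0.0143% in those 25 and 0.0939% to 1.13% in those 29. The second most abundant gene of the 15 libraries held 0.895% to 3.01% in the 25 and 3.7% to 7.82% in the 29, so that its bands lay closer together outside the 15 libraries but did not overlap. The 6 animals sequenced in more than 1 run, with 15 libraries between them, fell on the same side in every run. Of the 45 animals, 22 were on the side of the first gene. The labels give no item that follows this division, and no test grouped the animals by it.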
